A study of Mus musculus with 18 samples.

Results

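Egr1, Egr2, Egr3, Nr4a1, Nr4a2, Nr4a3, Nab2 and Dusp6 are genes that T cells transcribe when the T cell receptor is engaged. They were chosen by name as a set of receptor-induced genes and are 8 of the 34082 gene symbols in the deposited table. All 8 reached 1 FPKM (fragments per kilobase of transcript, scaled to library size) in at least 2 libraries and were tested, beside 24525 genes in all.

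The series concerns progenitors of Tgd17 cells, which are IL-17-producing gamma delta T cells. Its 18 RNA-seq libraries came from thymocytes of C57BL/6 mice at postnatal day 10, and strain, tissue and age were shared by all groups. The 7 sorted populations were DN1ab (n = 2), DN1d (n = 2), DN1e (n = 3), DN1 ckit+ (n = 3), DN2 (n = 3), DN4 (n = 3) and ImmV2 (n = 2). Double-negative (DN) thymocytes carry neither CD4 nor CD8. DN1, DN2 and DN4 are successive stages, and DN1 ckit+ cells carry the receptor Kit. What ImmV2 stands for is not given in the labels, but the design text sets the other populations against it. The sorting gates and the number of mice behind a library are not given either. Replicates are called biological, but no label says that they came from separate animals, so p-values reflect only how far these libraries spread, and that may be technical in part. In sorted bulk samples, fewer cells expressing a gene and less RNA per cell cannot be told apart.

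Engagement of the T cell receptor activates the kinases Lck and Zap70, which branch into a Ras and ERK pathway and a calcium pathway. ERK acts on serum response factor to switch on the zinc-finger factors Egr1, Egr2 and Egr3 within the first hour, and calcium signals help to switch on the orphan nuclear receptors Nr4a1 (Nur77), Nr4a2 (Nurr1) and Nr4a3 (Nor1). Nab2 is a corepressor that Egr factors induce and that binds them in return, while Dusp6 is a cytoplasmic phosphatase that removes the activating phosphates from ERK. In the thymus these genes mark cells under pre-T receptor, gamma delta receptor or selection signals. Several of them also respond to growth factors, cytokines and stress, in many cell types.

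RefSeq promoter windows of GRCm38.p6, from 250 bases before to 50 bases after a start site, were held for 6 of the 8 genes, 10 windows in all. The windows of Nr4a1, Nr4a2 and Nr4a3 are shown as the promoters of a family whose members had unlike levels, and 1 of the 5 windows of Egr2 is shown because Egr2 and Nr4a2 had the highest correlation among the 8 genes. Capitals mark 3 kinds of match on either strand, which do not overlap in these windows. They are the CRE core TGACG, the serum response element core called the CArG box and the EGR site GCGNGGGCG. The Egr2 window lies at chr10:67537619-67537918 on the plus strand, the Nr4a1 window at chr15:101266596-101266895 on the plus strand, the Nr4a2 window at chr2:57123954-57124253 on the minus strand and the Nr4a3 window at chr4:48045055-48045354 on the plus strand.
Egr2: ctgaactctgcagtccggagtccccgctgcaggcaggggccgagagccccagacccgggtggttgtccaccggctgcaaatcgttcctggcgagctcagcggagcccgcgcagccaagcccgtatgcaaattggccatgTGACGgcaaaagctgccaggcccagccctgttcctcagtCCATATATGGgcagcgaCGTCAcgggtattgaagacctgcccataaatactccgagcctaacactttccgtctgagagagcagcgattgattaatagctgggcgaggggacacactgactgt
Nr4a1: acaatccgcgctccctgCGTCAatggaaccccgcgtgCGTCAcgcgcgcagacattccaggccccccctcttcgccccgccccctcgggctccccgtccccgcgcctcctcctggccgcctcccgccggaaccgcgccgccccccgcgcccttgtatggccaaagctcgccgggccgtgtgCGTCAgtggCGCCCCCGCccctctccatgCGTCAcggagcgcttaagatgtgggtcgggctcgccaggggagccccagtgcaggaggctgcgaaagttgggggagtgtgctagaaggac
Nr4a2: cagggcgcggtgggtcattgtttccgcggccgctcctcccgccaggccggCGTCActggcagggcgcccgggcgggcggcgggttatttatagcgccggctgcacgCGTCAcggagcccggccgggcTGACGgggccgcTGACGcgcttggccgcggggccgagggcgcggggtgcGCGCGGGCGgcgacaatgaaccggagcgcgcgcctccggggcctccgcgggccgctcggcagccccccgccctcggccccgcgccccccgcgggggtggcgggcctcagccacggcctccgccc
Nr4a3: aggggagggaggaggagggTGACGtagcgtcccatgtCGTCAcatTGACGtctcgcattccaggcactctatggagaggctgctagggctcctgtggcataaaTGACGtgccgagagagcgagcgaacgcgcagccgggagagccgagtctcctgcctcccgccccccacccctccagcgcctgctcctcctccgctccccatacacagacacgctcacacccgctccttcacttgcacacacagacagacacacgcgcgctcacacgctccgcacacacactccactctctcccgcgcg

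Each of the 3 Nr4a windows holds 4 CRE cores, and those of Nr4a1 and Nr4a2 hold 1 EGR site each. The Egr2 window shown holds 2 CRE cores, with a CArG box between them. Of the other 4 Egr2 windows, 2 overlap it and hold the same letters, 1 holds a CArG box alone and 1 holds none of the motifs searched. Of 32851 promoter windows of the same length, 20.8% hold a CRE core, 1.63% a CArG box and 5.55% an EGR site. The NBRE AAAGGTCA, which Nr4a proteins bind, and the AP-1 site TGACTCA are in none of the 10 windows and in 1.51% and 5.2% of all windows. The windows of Nab2 and Dusp6 also hold none of the 5 motifs. These matches describe letters only, and no binding was measured.

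Because the table has no counts, sequencing depth is unknown. In each library 34.5% to 53.6% of all rows were listed at the lowest value, 0.01 FPKM, and so were housekeeping genes in some: Actb was under 1 FPKM in 11 libraries and at the lowest value in 3. For a gene at 0.01 FPKM the text says no more than that it was listed at the lowest value. Of the 144 values of the 8 genes, 24.3% were at the lowest value, against 42.7% of all values in the table. The second share includes rows too low to be tested, whereas all 8 genes were tested, so these shares are not alike. At least 1 FPKM was reached by 40.3% of their values, against 41.2% of the values of all tested genes. Levels are given in FPKM, which is per length, with the libraries of a population in the order of their replicate numbers.

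Egr1 was the most widely present of the 8 genes, at 1 FPKM or more in 15 of 18 libraries. It had 11.8 and 9.67 FPKM in DN1ab, 9.7, 16.7 and 10.1 FPKM in DN1 ckit+, with 9.91, 12 and 10.9 FPKM in DN2. Levels were 5.28 and 3.1 FPKM in DN1d, with 0.01, 4.74 and 0.01 FPKM in DN1e. In DN4 there were 0.702, 14.3 and 1.2 FPKM. ImmV2 had 65.6 and 12.7 FPKM. The 8 libraries of DN1ab, DN1 ckit+ and DN2 thus formed a narrow band, in which Egr1 stood above 87.2% to 91.3% of the rows of its library. Both DN1d libraries and all DN1e libraries lay below that band, 2 of the DN1e libraries at the lowest value. In DN4, 1 library lay in the band and 2 lay below it. The second ImmV2 library, at 12.7 FPKM, lay in the band too, and the first lay above it. In the order of population medians, ImmV2 stood highest and did not overlap DN2, the next population. It did overlap DN1 ckit+ and DN4. Further down, DN1 ckit+ did not overlap DN1d, and the other 4 pairs of neighbours overlapped. For Egr1 and the genes below, such orders were not taken over all genes. How often neighbours are apart in general is therefore not known.

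Egr2 and Egr3 had other patterns than Egr1. Egr2, which restrains T cell activation and is needed by NKT cell precursors, had 6.91 and 4.34 FPKM in DN1d, 0.603, 0.999 and 2.23 FPKM in DN1e, with 0.0756, 0.559 and 5.37 FPKM in DN4. It had 0.169 and 0.01 FPKM in DN1ab, 0.0447, 0.199 and 0.0115 FPKM in DN1 ckit+, with 0.01, 0.152 and 0.0355 FPKM in DN2, against 5.72 and 0.907 FPKM in ImmV2. All 8 libraries of the DN1ab, DN1 ckit+ and DN2 populations were thus below every DN1d, DN1e and ImmV2 library for Egr2, whereas these were the libraries of the narrow Egr1 band. No neighbours in the order of Egr2 medians were free of overlap.

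Egr3, which acts with Egr2 in thymocytes, had 7.59, 25.9 and 1.68 FPKM in DN1e, the only population with all libraries above 1 FPKM. In DN1ab it had 0.887 and 3.51 FPKM, in DN1d 2.19 and 0.01 FPKM, and in ImmV2 0.01 and 2.91 FPKM. Its highest level, 26.7 FPKM, was in the second DN2 library, while the other 2 DN2 libraries and all 3 of DN1 ckit+ were listed at the lowest value. In DN4 it had 0.01, 0.01 and 0.0473 FPKM. Egr3 was at the lowest value in 9 of 18 libraries, more than any other of the 8 genes, and no neighbours in its order were free of overlap.

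**Figure D1:**
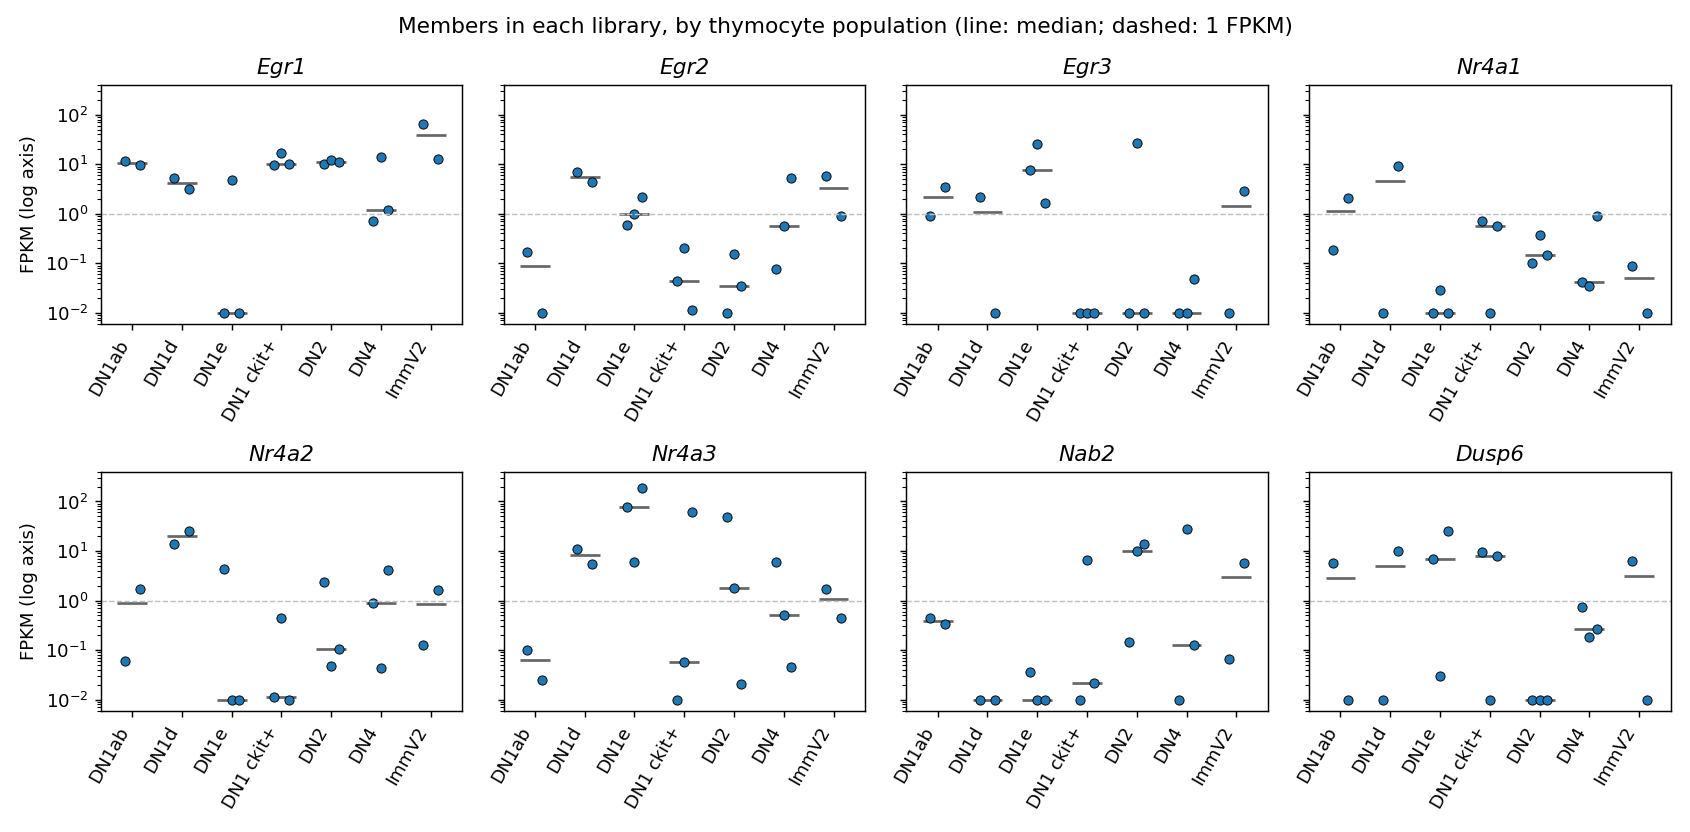
Level of each of the 8 genes (FPKM, log axis) in each of 18 libraries, by population; points are libraries, bars are population medians and the dashed line is 1 FPKM. Egr1 lies between 9.67 and 16.7 FPKM in DN1ab, DN1 ckit+ and DN2, and both Nr4a2 points of DN1d, at 13.7 and 25.9 FPKM, lie above all other libraries.

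Nab2, the corepressor of the Egr factors, had 0.148, 9.95 and 13.6 FPKM in DN2, with 0.01, 27.5 and 0.125 FPKM in DN4. It had 0.01, 6.59 and 0.0218 FPKM in DN1 ckit+, 0.445 and 0.343 FPKM in DN1ab, against 0.066 and 5.81 FPKM in ImmV2. Both DN1d libraries and 2 of 3 DN1e libraries were listed at the lowest value, and the first DN1e library had 0.0362 FPKM. Nab2 thus reached 1 FPKM in 5 libraries, none of them from DN1ab, DN1d or DN1e. In each of those 5 libraries Egr1 had 10.9 FPKM or more. Nab1, the other corepressor of this family, had 3.78 and 1.36 FPKM in DN1d, against 3.17 and 5.31 FPKM in ImmV2.

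Of the nuclear receptors, Nr4a1 was low nearly everywhere. It had 0.01 and 9.38 FPKM in DN1d, with 0.187 and 2.12 FPKM in DN1ab, and only the second library of each of these populations passed 1 FPKM. In DN1e it had 0.01, 0.0289 and 0.01 FPKM, in DN1 ckit+ 0.707, 0.01 and 0.569 FPKM, and in DN2 0.0997, 0.377 and 0.148 FPKM. DN4 had 0.041, 0.0351 and 0.892 FPKM and ImmV2 0.0891 and 0.01 FPKM. Neighbours in the order of medians were apart between DN2 and ImmV2 and between DN4 and DN1e, all at under 1 FPKM.

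Nr4a2 was highest in DN1d, at 13.7 and 25.9 FPKM, above 89.8% and 94% of the rows of those libraries. The other 16 libraries all lay below both DN1d libraries. How many of all genes have 1 population above all others was not counted. DN1ab had 0.0593 and 1.69 FPKM, DN1e had 4.27, 0.01 and 0.01 FPKM, and DN1 ckit+ had 0.0112, 0.451 and 0.01 FPKM. Levels were 2.4, 0.0483 and 0.104 FPKM in DN2, 0.877, 0.0435 and 4.2 FPKM in DN4, against 0.124 and 1.6 FPKM in ImmV2. DN1d and DN4, the next population, did not overlap, and all other neighbours did.

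Nr4a3 had the highest single level of the 8 genes, 186 FPKM in the third DN1e library, with 79.1 and 5.99 FPKM in the other two. In DN1d it had 11.1 and 5.43 FPKM, in DN1ab 0.102 and 0.0245 FPKM, and in ImmV2 1.73 and 0.446 FPKM. Single libraries were high elsewhere, with 0.01, 0.0565 and 61.2 FPKM in DN1 ckit+, 48, 1.77 and 0.0207 FPKM in DN2, with 6, 0.517 and 0.0453 FPKM in DN4. All DN1d and DN1e libraries lay above both ImmV2 libraries and both DN1ab libraries. No neighbours in the order of Nr4a3 medians were free of overlap. The SD between libraries of a population, 2.28 on the log2(FPKM + 1) scale, was larger than the SD of the 7 population means, 1.79. For Nr4a2 this was turned round, with 0.98 between libraries and 1.39 between population means.

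Dusp6, the ERK phosphatase, was split within populations. It had 9.62, 0.01 and 7.95 FPKM in DN1 ckit+, 6.91, 0.0297 and 24.9 FPKM in DN1e, with 0.756, 0.187 and 0.266 FPKM in DN4. Of the 2 libraries, 1 was high and 1 at the lowest value in DN1ab (5.67 and 0.01 FPKM), DN1d (0.01 and 9.84 FPKM) and ImmV2 (6.28 and 0.01 FPKM). All 3 DN2 libraries were listed at the lowest value. No library had both Dusp6 and Nab2 at 1 FPKM or more.

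**Figure D2:**
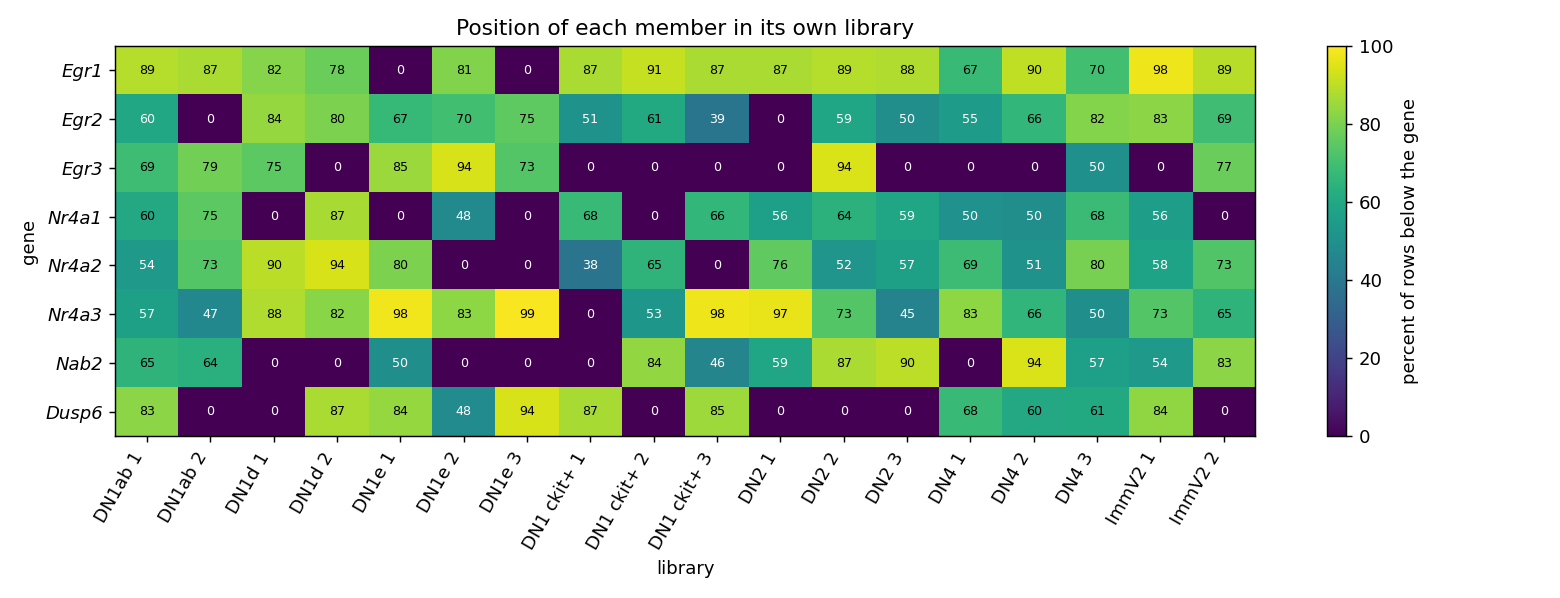
Percentage of the 34082 rows of a library that lie below each gene, for the 8 genes (down) and the 18 libraries (across), with replicate numbers. Egr1 lies at 87.2% to 91.3% in all DN1ab, DN1 ckit+ and DN2 libraries, and a value of 0 is a gene listed at the lowest value.

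The number of the 8 genes at 1 FPKM or more ranged from 1 in the first DN4 library to 6 in the second DN1d library. In DN1d it was 5 and 6, in DN1e 4, 3 and 4, in DN1ab 2 and 4, in DN1 ckit+ 2, 2 and 3, in DN2 3, 4 and 2, in DN4 1, 2 and 3, and in ImmV2 4 and 4. Both DN1d libraries shared Egr1, Egr2, Nr4a2 and Nr4a3. Both ImmV2 libraries had 4 genes, of which Egr1 was the only one in common.

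Levels were then compared with limma on log2(FPKM + 1), with Benjamini-Hochberg adjustment over all 24525 tested genes. Calls needed an adjusted p under 0.05 together with a log2 difference of 1 or more in size. None of the 8 genes was called in any of 8 comparisons, or in a moderated F test over the 7 populations, which called 1.4% of all genes. Of the 64 pairs of gene and comparison, 6 (9.38%) had an unadjusted p under 0.05, against 7.49% of the same pairs over all genes, and the lowest adjusted p was 0.134. In the F test, 2 of the 8 genes had an unadjusted p under 0.05, against 2772 of all genes (11.3%). They were Nr4a2 and Egr1, with unadjusted p of 0.0324 and 0.0452 and adjusted p of 0.369 and 0.422 by limma. SEs of the log2 differences ran from 0.68 to 2.07. The differences below are given only where the libraries of the 2 populations did not overlap. With fewer libraries, 2 populations overlap less often for any gene. Shares over all genes were taken with all libraries only, so counts with a library left out have no share beside them. The 6 comparisons against ImmV2 share its 2 libraries, so they are not independent of each other.

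DN1d had more Nr4a2 and Nr4a3 and less Egr1 than ImmV2 in every library, but no difference passed the test. The log2 difference was 3.54 ± 1.15 (SE) for Nr4a2, with an adjusted p of 0.4 by limma, and 2.15 ± 2.07 for Nr4a3, with an adjusted p of 0.925. For Egr1 it was -2.57 ± 1.29, with an adjusted p of 0.755, and -1.43 without ImmV2 1. Nab2 was lower in both DN1d libraries, which were at the lowest value, so no difference is given. Thus 4 of 8 genes did not overlap between DN1d and ImmV2, against 26% of all genes, and none was called, against 0.277%. The median log2 difference was 0.57 over the 8 genes and 0.00 over all genes, and 1 of the 8 had an unadjusted p under 0.05, against 6.9% of all genes. Without DN1d 1, Nr4a1 was called from the lone DN1d library left, at 9.38 FPKM, with an adjusted p of 0.04 by limma. A list of genes induced by tissue dissociation summed to 63.7 and 454 FPKM at its lowest and highest in DN1d, against 9.94 and 51.2 FPKM in ImmV2. Its median log2 difference was 0.69, with none called and 2 of 13 at an unadjusted p under 0.05. The summed level of 5 B cell markers was 11.1 and 50 FPKM in DN1d, where none was at the lowest value throughout, against 1.05 and 10.3 FPKM in ImmV2, where Cd79a and Ms4a1 were. Their median log2 difference was 1.57, with none called and 1 of 5 at an unadjusted p under 0.05. The 6 thymic epithelium markers summed to 8.15 and 15 FPKM in DN1d, against 0.405 and 4.73 FPKM in ImmV2. Krt5 and Foxn1 were at the lowest value throughout DN1d. Over the 4 tested the median log2 difference was 0.06, with none called and 1 at an unadjusted p under 0.05. Summed myeloid markers overlapped, with 46.4 to 112 FPKM in DN1d, against 3.11 and 116 FPKM in ImmV2. Their median log2 difference was 0.10, with 2 of 8 at an unadjusted p under 0.05. Tyrobp was at the lowest value throughout both populations. Fcer1g, a chain of Fc receptors, had 37.3 and 20.3 FPKM in DN1d and was at the lowest value in ImmV2. Its difference was not called (adjusted p = 0.156 by limma). The part of these transcripts in the Nr4a2, Nr4a3 and Egr1 levels was not tested.

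DN1e had more Nr4a3 and less Egr1 than ImmV2 in every library. The log2 difference of Nr4a3 was 4.57 ± 1.89, with an unadjusted p of 0.0278 and an adjusted p of 0.406 by limma. For Egr1 it was -4.07 ± 1.18, with an unadjusted p of 0.00319 and an adjusted p of 0.177, and for Nab2 -1.40 ± 1.48, with an adjusted p of 0.824. The Nab2 value rested on the second ImmV2 library, at 5.81 FPKM: it was -0.07 without ImmV2 2 and -2.74 without ImmV2 1. With these, 3 of 8 genes did not overlap, against 21.3% of all genes, and none was called, against 0.591%. Without ImmV2 2 the count was 6, with no share over all genes to set beside it. The median log2 difference was -0.00 over the 8 genes and 0.01 over all genes. The 2 genes with an unadjusted p under 0.05 compare with 10.2% of all genes. The summed level of 8 myeloid markers was 769 to 1277 FPKM in DN1e, where none was at the lowest value throughout. It was 3.11 to 116 FPKM in ImmV2, where Fcer1g and Tyrobp were at the lowest value in both libraries. Over the 8 markers the median log2 difference was 2.20, with 4 at an unadjusted p under 0.05. The 2 called were Lyz2 and Fcer1g. Fcer1g had 700, 278 and 371 FPKM in DN1e (adjusted p = 0.00232 by limma). Lyz2, the lysozyme of macrophages, had 406, 290 and 226 FPKM in DN1e, against 0.149 and 0.0329 FPKM in ImmV2, and was called higher by limma (log2 difference 8.10 ± 1.20, adjusted p = 0.00474). The 13 dissociation genes summed to 90.8 to 126 FPKM in DN1e, against 9.94 to 51.2 FPKM in ImmV2, with a median log2 difference of 1.19, none called and 2 of 13 at an unadjusted p under 0.05. The 6 thymic epithelium markers summed to 24.6 to 34.7 FPKM in DN1e, against 0.405 to 4.73 FPKM in ImmV2. Over the 4 tested the median log2 difference was 1.41, with none called and none at an unadjusted p under 0.05. The part of these transcripts in the Egr1 and Nr4a3 levels of DN1e was not tested.

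**Figure D3:**
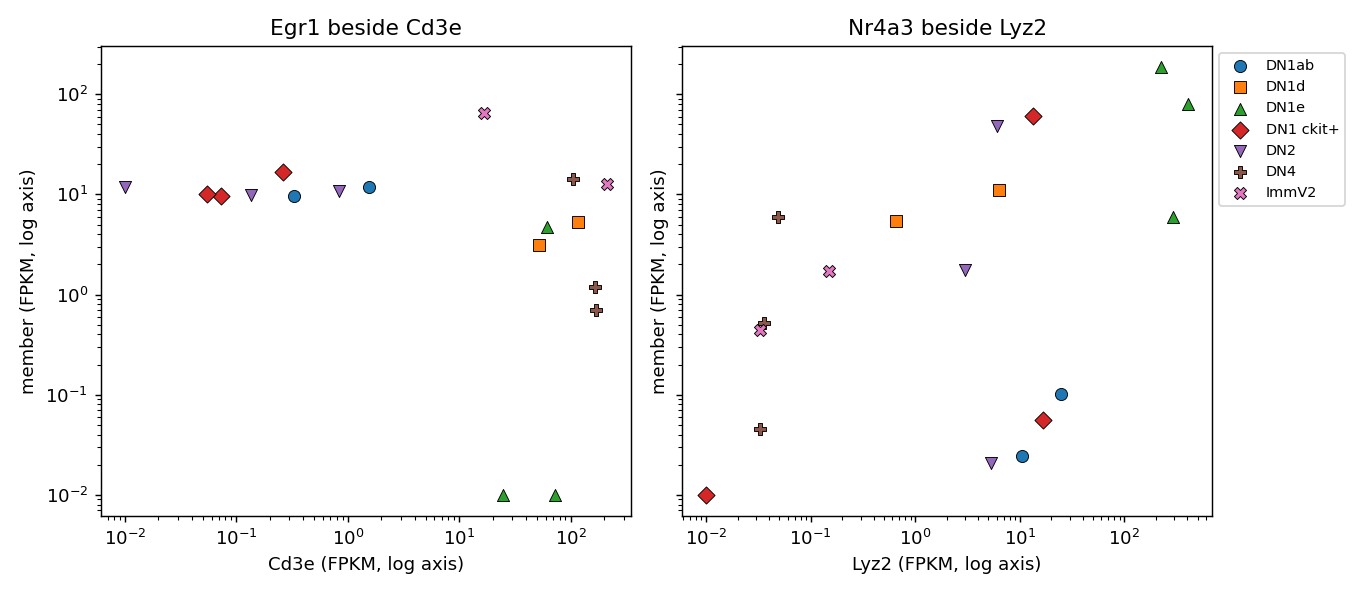
Left, Egr1 against Cd3e, a chain of the receptor complex; right, Nr4a3 against Lyz2, a macrophage transcript; both axes in FPKM on log scales, with 1 point per library and symbols for the 7 populations. The DN1ab, DN1 ckit+ and DN2 libraries have Cd3e of at most 1.56 FPKM beside Egr1 of at least 9.67 FPKM. ImmV2 2 and DN4 2 have Egr1 of 12.7 and 14.3 FPKM beside Cd3e of 211 and 105 FPKM. The 3 DN1e libraries have the highest Lyz2 levels.

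DN1ab had less Egr1, Egr2 and Nr4a3 and more Nr4a1 than ImmV2, without overlap of the libraries. Log2 differences were -1.37 ± 1.29 for Egr1 and -1.72 ± 0.97 for Egr2, with adjusted p of 0.873 and 0.723 by limma. They were -0.90 ± 2.07 for Nr4a3 and 0.88 ± 0.83 for Nr4a1, with adjusted p of 1 and 0.872. Without ImmV2 1 the differences were -0.23 for Egr1, -0.81 for Egr2 and -0.45 for Nr4a3, and without ImmV2 2 they were -2.51, -2.63 and -1.36. Nr4a1 was 0.18 without DN1ab 2 and 1.57 without DN1ab 1. These 4 of 8 genes compare with 28.8% of all genes without overlap. Without ImmV2 2 there were 7 of 8, a count for which no share over all genes was taken. The median log2 difference was -0.48 over the 8 and 0.00 over all genes. None of the 8 was called, against 0.396% of all genes, and none had an unadjusted p under 0.05, against 7.74%. Summed B cell markers were 18.2 and 91.3 FPKM in DN1ab, against 1.05 and 10.3 FPKM in ImmV2. Their median log2 difference was 0.02, with 0 of 5 at an unadjusted p under 0.05. The 6 thymic epithelium markers summed to 6.53 and 20.2 FPKM in DN1ab, against 0.405 and 4.73 FPKM in ImmV2. Over the 4 tested the median was 1.18, with 2 at an unadjusted p under 0.05. For 8 myeloid markers, whose sums overlapped, the median was 0.57, with 3 at an unadjusted p under 0.05. No marker of these lists was called, and their part in the levels of the 8 genes was not tested.

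In DN1 ckit+, Egr2 was lower than in ImmV2 in every library, and it was the only one of the 8 genes without overlap, against 21.1% of all genes. Its log2 difference was -1.73 ± 0.88, with an adjusted p of 0.741 by limma, and it was -0.82 without ImmV2 1 and -2.64 without ImmV2 2. The count of genes without overlap was unstable, at 6 without DN1 ckit+ 2, 3 without ImmV2 1, and 2 without ImmV2 2 or DN1 ckit+ 3. The share over all genes was not taken for these smaller sets. The median log2 difference was -0.51 over the 8 and 0.01 over all genes. None of the 8 was called, against 0.33% of all genes, and none had an unadjusted p under 0.05, against 7.23%.

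DN2 had less Egr1 and Egr2 than ImmV2 and slightly more Nr4a1, all without overlap. The log2 difference was -1.34 ± 1.18 for Egr1, -1.75 ± 0.88 for Egr2 and 0.20 ± 0.75 for Nr4a1, with adjusted p of 0.912, 0.762 and 1 by limma. Without ImmV2 1 these were -0.20 for Egr1 and -0.84 for Egr2, and without ImmV2 2 they were -2.48 and -2.66. Nr4a1 was 0.10 without DN2 2. These 3 of 8 genes compare with 18.6% of all genes without overlap, and none of the 8 was called, against 0.188%. Without ImmV2 2 or DN2 1 the count was 5, again with no share over all genes beside it. Over the 8 genes the median log2 difference was 0.04, beside 0.01 over all genes. None of the 8 had an unadjusted p under 0.05, against 6.92% of all genes.

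Between DN4 and ImmV2 all 8 genes overlapped, whereas 20.6% of all genes did not. When 1 ImmV2 library was left out, whichever it was, 3 of the 8 did not overlap, and 1 of the 8 when DN4 2 or DN4 3 was. For these smaller sets the share over all genes was not taken. Over the 8 genes the median log2 difference was -0.27, beside 0.01 over all genes. None was called, against 0.249%, and 1 of 8 had an unadjusted p under 0.05, against 7.03%. That gene was Egr1, whose second DN4 library, at 14.3 FPKM, exceeded the second ImmV2 library, at 12.7 FPKM. The 13 dissociation genes summed to 37.4 to 2029 FPKM in DN4, against 9.94 to 51.2 FPKM in ImmV2. Their median log2 difference was 1.10, with none called and 2 of 13 at an unadjusted p under 0.05. The part of these transcripts in the Egr1 levels was not tested.

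Within DN1, Nr4a2 and Egr2 were higher in both DN1d libraries than in all 3 DN1 ckit+ libraries, and Egr1 was lower. The Nr4a2 difference of 4.12 ± 1.05 on the log2 scale had the lowest adjusted p of any pair, 0.134 by limma, with an unadjusted p of 0.00113. With a pseudocount of 5 FPKM, Nr4a2 passed the test, with a log2 difference of 2.22 and an adjusted p of 0.0371. Egr2 differed by 2.59 ± 0.88, with an unadjusted p of 0.00952 and an adjusted p of 0.372. Egr1 differed by -1.34 ± 1.18, with an adjusted p of 0.854. Without overlap were 3 of 8 genes, against 22.7% of all genes, and called were none, against 0.363%. Without DN1d 1 the count was 5, for which no share over all genes was taken. The 2 genes with an unadjusted p under 0.05 compare with 8.43% of all genes, and the median log2 difference was 0.98 over the 8 and -0.00 over all genes. Summed dissociation genes were 63.7 to 454 FPKM in DN1d and 67.3 to 77.5 FPKM in DN1 ckit+, with a median log2 difference of 0.70. Of these 13 genes, 2 had an unadjusted p under 0.05. B cell markers, whose sums overlapped, had a median log2 difference of 1.38, with 2 of 5 at an unadjusted p under 0.05. The 6 thymic epithelium markers summed to 8.15 to 15 FPKM in DN1d and 0.122 to 1.32 FPKM in DN1 ckit+. Over the 4 tested the median was 0.50, with 1 at an unadjusted p under 0.05. No gene of these lists was called, and their part in the Nr4a2, Egr2 and Egr1 levels was not tested.

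DN4 against DN2 spans the stage at which the pre-T receptor signals. Only Dusp6 was free of overlap, at 0.187 to 0.756 FPKM in DN4, against the lowest value in all 3 DN2 libraries, and no difference is given for it. This 1 of 8 compares with 9.66% of all genes. The count was 2 without DN2 2, DN4 1 or DN4 3 and 3 without DN4 2, with no share over all genes for these smaller sets. Over the 8 genes the median log2 difference was -0.38, beside 0.00 over all genes. None of the 8 was called, against 0.0815% of all genes, and none had an unadjusted p under 0.05, against 5.44%. Egr1 had 1 DN4 library above and 2 below the DN2 libraries.

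**Figure D4:**
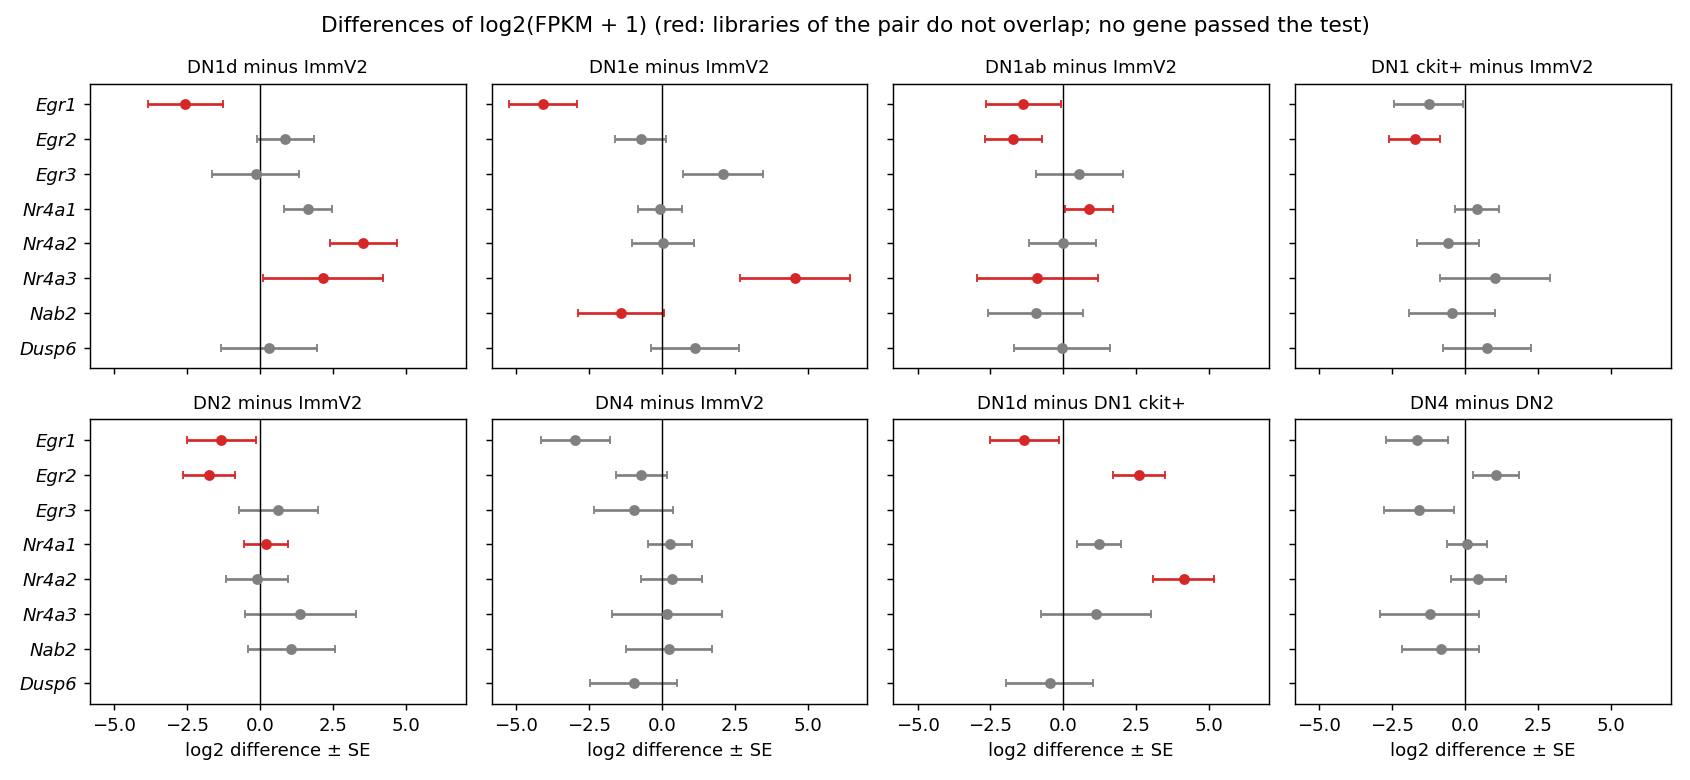
Log2 differences on log2(FPKM + 1), first population minus second, with SE, for the 8 genes in 8 comparisons; red marks pairs of populations whose libraries do not overlap, and pairs with a population wholly at the lowest value are left out. The furthest red points are 4.57 for Nr4a3 in DN1e against ImmV2 and 4.12 for Nr4a2 in DN1d against DN1 ckit+; no gene passed the test.

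Across the 18 libraries the 8 genes did not form a single block. Pearson correlations on log2(FPKM + 1) had a median of -0.073 over 28 pairs, 17 of them below 0. These are descriptions over libraries that share a kit and an age of mice. The highest was between Egr2 and Nr4a2, with r = 0.556 and a Spearman rho of 0.250. Without the 2 libraries farthest from the median of Egr2, r was 0.594. Nr4a1 and Nr4a2 had r = 0.554 but rho = 0.053, and r = -0.094 without the 2 libraries farthest from the median of Nr4a1, so this relation rested on them. Egr1 and Nab2 had r = 0.399 and rho = 0.700. The lowest was between Egr1 and Nr4a3, at r = -0.535 and rho = -0.436, and it was -0.165 without 2 libraries.

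**Figure D5:**
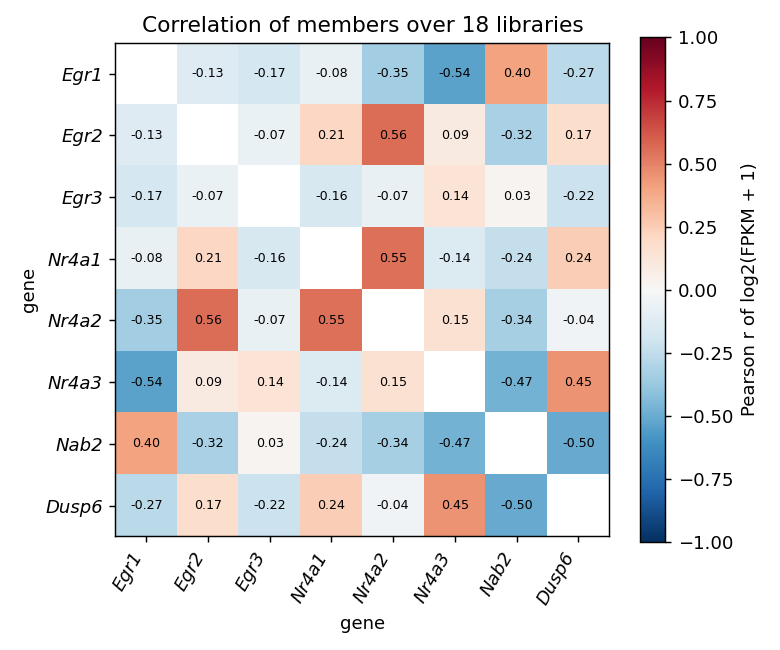
Pearson correlation (colour and number, from -1 to 1) between each pair of the 8 genes over 18 libraries on log2(FPKM + 1). The values run from -0.535 for Egr1 with Nr4a3 to 0.556 for Egr2 with Nr4a2.

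Of the 8 genes, Egr1 and Nr4a3 reached 1 FPKM in 9 or more libraries, and for these the genes with the most similar profile among 15053 were listed. For Egr1 they were Tespa1 with r = 0.798, Zmynd17 with r = 0.762 and Dpy30 with r = 0.753. Without the 2 libraries farthest from the median of Egr1 these were 0.665, 0.620 and 0.554. For Nr4a3 they were Ccr2 with r = 0.824, Paqr8 with r = 0.813 and Clip2 with r = 0.789, and 0.728, 0.855 and 0.728 without 2 libraries.

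Receptor components were set beside these genes. Cd3e, a chain of the receptor complex, had 117 and 51.6 FPKM in DN1d, 25, 60.9 and 72.8 FPKM in DN1e, 170, 105 and 166 FPKM in DN4, against 16.6 and 211 FPKM in ImmV2. It had at most 1.56 FPKM in the DN1ab, DN1 ckit+ and DN2 libraries, which were those of the narrow Egr1 band. Egr1 also lay in that band in ImmV2 2 (12.7 FPKM) and DN4 2 (14.3 FPKM), beside Cd3e of 211 and 105 FPKM. ImmV2 1 had the highest Egr1 level, 65.6 FPKM, beside Cd3e of 16.6 FPKM. In DN1e, with Cd3e of 25 FPKM or more in every library, Egr1 was at most 4.74 FPKM. DN4 had more Cd3e than DN2, with a log2 difference of 6.82 ± 1.00 and an adjusted p of 0.00741 by limma, and this call held in all 28 alternatives. The Cd3e calls in DN1 ckit+ against ImmV2 (lower) and in DN1d against DN1 ckit+ (higher) were lost in 9 and 7 of 28. Leaving out ImmV2 2 or any DN1 ckit+ library ended the call against ImmV2. The call in DN1d ended without DN1d 1, DN1 ckit+ 1 or DN1 ckit+ 3. Lck, the kinase that starts the signal, had 22.2 FPKM or more in all 18 libraries. Other genes for receptor chains and proximal signalling were at the lowest value throughout a population. They were Cd247, Fyn, Lcp2, Themis, Plcg1 and Grap2 in DN1d, Ptcra, Lcp2 and Grap2 in DN1e, and Zap70 in ImmV2. In DN1ab it was Fyn, in DN1 ckit+ Themis and in DN2 Vav1, while DN4 had no such gene.

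Of 20 tested genes for receptor chains and proximal signalling, Cd3e was the only one called in any of the 8 comparisons, in 3 of them, and the list had 31 of 160 gene and comparison pairs (19.4%) at an unadjusted p under 0.05. Over all genes the share of such pairs was 7.49%, and 5.44% to 10.2% by comparison. Its median log2 difference ran from -1.41 to 0.55. In the Ras and ERK cascade none of 15 tested genes was called, and 11 of 120 pairs (9.17%) had an unadjusted p under 0.05. No gene was called either among 12 ERK feedback genes and Egr corepressors (7 of 96 pairs, 7.29%), 19 immediate early and AP-1 genes (7 of 152 pairs, 4.61%), or 20 other genes that receptor signals raise in thymocytes (11 of 160 pairs, 6.88%). Of 13 dissociation genes none was called, with 11 of 104 pairs (10.6%). Median log2 differences of the immediate early list ran from -0.29 to 0.76, and those of the ERK feedback list from -0.54 to 0.47. For the other receptor-raised genes they ran from -0.43 to 0.39.

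Among immediate early genes, Fos had 48.1, 23.3 and 34.2 FPKM in DN1 ckit+, 0.01, 0.01 and 5.19 FPKM in DN2, against 0.01 and 13.5 FPKM in ImmV2. Its highest level was in DN1d, with 0.01 and 51.2 FPKM. Levels of Fos were 0.01 and 15.6 FPKM in DN1ab, 0.729, 0.01 and 17.5 FPKM in DN1e, and 0.01, 0.01 and 0.0574 FPKM in DN4. Its partner Jun had 12 and 26 FPKM in DN1d, 0.58, 0.917 and 0.638 FPKM in DN4, against 20.4 and 4.06 FPKM in ImmV2. DN4 was thus below 1 FPKM for Jun in every library, and so was the first DN1e library, at 0.629 FPKM. Junb ranged from 0.01 to 67.5 FPKM. Cd69, an early activation antigen, had 19.8 and 3.78 FPKM in DN1d, against 4.14 and 6.54 FPKM in ImmV2, and Cd5, which tracks receptor signal strength, had 0.409 and 4.27 FPKM in DN1d, against 3.35 and 0.0381 FPKM in ImmV2. Id3, a target of Egr factors in thymocytes, had 2.47 and 58.4 FPKM in DN1d, while both ImmV2 libraries were at the lowest value. Id3 also reached 13.2 FPKM in DN4 1 and 9.12 FPKM in DN1e 2. It was at the lowest value in DN1ab 2, DN1e 3 and DN2 1 as well. Egr4 passed 1 FPKM in 2 libraries, at 6.91 FPKM in the second DN1ab and 5.53 FPKM in the first ImmV2 library.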

How the data were processed

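RNA-seq was analysed from 18 libraries of 7 sorted thymocyte populations. Per the labels' protocols, about 10000 cells per population were lysed directly and RNA was amplified with NuGEN Ovation chemistry before HiSeq sequencing. The values the authors deposited are log2 FPKM, with 1 row per symbol. Bowtie and the build mm8 stand in the submitters' processing notes, while the aligner's version, the annotation, the quantifier and any normalization are not given there or in the labels. The deposited log2 values have a floor at 0.01 FPKM, and high values appear to share a scale by rank, so a percentage of rows below a gene is also given. Levels were converted to FPKM, 1 FPKM was added and log2 taken, which understates changes of low genes. Genes that reached 1 FPKM in 2 or more libraries entered limma (version 3.58.1, R 4.3.3; lmFit, contrasts.fit, eBayes with trend). All libraries were in 1 fit of 7 population means, and two-sided p-values were adjusted by Benjamini-Hochberg over every tested gene. The fit was tested on simulated data, with log2 differences of 4 or 8 added in DN1d. Against ImmV2 it called 11 of 100 genes with a difference of 4 and 72 of 100 with 8, beside 4 false calls. A gene that was not called may therefore still differ.

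All 8 genes are named. Differences are printed where libraries did not overlap or a gene was called. From the pathway lists, called genes and 10 set names may be named, and for genes at 1 FPKM in 9 libraries the 3 most correlated named genes. Genes of the lists at the lowest value throughout a population are also named in places. A cell type marker is not reported here. The genes and lists were chosen with earlier results of these data known. Camk4 and Cd3e calls were followed through the alternatives, and Actb was named, after their values were seen. RefSeq promoters come from GRCm38.p6, which is not mm8, and were not tied to the table by coordinates. Alternatives changed the pseudocount, the filter, the scaling, the libraries fitted and the replicate block.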

Additional observations from a re-analysis of the deposited data

How the results depend on the processing

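The counts of the 8 genes called were 0 in 249 of 251 values over 28 alternatives, 18 of which left out 1 library each. With a pseudocount of 5 FPKM, 1 gene was called in DN1d against DN1 ckit+, Nr4a2, with a log2 difference of 2.22 and an adjusted p of 0.0371 by limma. Leaving out single libraries gave 0 to 1 genes called for DN1d against ImmV2. The 1 was Nr4a1 without the first DN1d library, the lone DN1d library left being assumed to vary like the other groups (adjusted p = 0.04). The cause was not tested. Of the 19 pairs without overlap 0 reversed in 524 values, but these pairs were chosen for not overlapping and none was called. Their sizes moved widely. Leaving out 1 library moved 12 of the 19 log2 differences by over 1.5 times, 9 of them on leaving out an ImmV2 library. It also moved 17 of 39 counts of genes without overlap, but fewer libraries overlap less often for any gene. Over all alternatives Egr1 in DN2 against ImmV2 ran from -2.48 to -0.14 and Nr4a2 in DN1d against DN1 ckit+ from 2.22 to 8.99. Same-numbered replicates did not deviate together (median correlation -0.00228 over 48 pairs, none over 0.1), so the numbers pair nothing. With the replicate block 0 of the 8 genes were called. With it the F test called 169 of all genes, against 343 without it. All-gene counts also changed with other choices. For DN1d against ImmV2 there were 68 called, 0 with only the compared populations fitted or 1 FPKM asked in 6 libraries, 8 on deposited log2 values, 110 without a filter and 186 without ImmV2 1 and DN2 1, left out after seeing the data. Leaving out single libraries gave 47 to 257. In the order DN1e, DN1ab, DN1 ckit+, DN2 and DN4 against ImmV2, DN1d against DN1 ckit+ and DN4 against DN2, the counts were 145, 97, 81, 46, 61, 89 and 20. With 1 FPKM asked in 6 libraries they were 26, 3, 7, 0, 4, 6 and 8. With only the compared populations fitted they were 0 in all but DN4 against DN2, which had 9. With the replicate block they were 69, 63, 33, 16, 31, 57 and 14. Without single libraries they reached 330, 297, 301, 258, 281, 333 and 56 at most. Sequencing depth, which is unknown, limits what a gene at the lowest value can show.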

Other observations

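Camk4, a calcium-dependent kinase and 1 of 15 tested genes of the calcium and NFAT pathway, was the only gene of that list called in the 8 comparisons. It had 0.01 and 0.374 FPKM in DN1d, 0.208, 0.01 and 7.61 FPKM in DN1e, and 0.01, 0.0161 and 0.01 FPKM in DN2. Levels in DN4 were 7.07, 18.1 and 21.9 FPKM, while ImmV2 had 49.2 and 81.8 FPKM. The gene was listed at the lowest value in all DN1ab and DN1 ckit+ libraries, so no difference is given for them, but limma called it lower than in ImmV2 in both (adjusted p = 0.0232 in DN1ab and 0.0156 in DN1 ckit+). The DN1 ckit+ call was lost in 2 of 28 alternatives, neither of which left out a library. The DN1ab call was lost in 7, among them without DN1ab 1 and without ImmV2 2. ImmV2 and DN4 libraries were thus high, and of the other libraries only the third of DN1e, at 7.61 FPKM, lay above the lowest DN4 library.

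Against ImmV2, the log2 difference of Camk4 was -5.99 ± 1.02 in DN2, with an adjusted p of 0.0182 by limma. That call was lost in 6 of 28 alternatives, among them leaving out the third DN2 library (adjusted p = 0.0531), and adjusted p ran from 0.00649 to 0.211. In DN1d the difference was -5.77 ± 1.12 (adjusted p = 0.0373) and in DN1e -4.88 ± 1.02 (adjusted p = 0.0377). These calls were lost in 17 and 18 of 28 alternatives. Leaving out either ImmV2 library, either DN1d library, or any DN1 ckit+ or DN2 library ended the DN1d call, as did leaving out the second DN4 library. The DN1e call ended without the first or second DN1e library, either ImmV2 library, any DN1 ckit+ or DN2 library, and the DN4 library numbered 2 or 3. The comparisons share the ImmV2 libraries. In the whole calcium list 11 of 120 pairs (9.17%) had an unadjusted p under 0.05, against 7.49% of pairs over all genes, and its median log2 difference ran from -0.36 to 0.44.

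Themis, an adaptor of the receptor pathway, passed the F test over the 7 populations (adjusted p = 0.0177 by limma). Its levels in DN4 were 35.9, 42.7 and 33.6 FPKM, beside 30.3 and 43.3 FPKM for ImmV2. Elsewhere it was at or under 0.804 FPKM, except at 16.8 FPKM in the first DN2 library.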
